A study of Homo sapiens with 4 samples.

Results

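KAP1, encoded by TRIM28, is a corepressor that KRAB zinc finger proteins bring to chromatin and that also acts at genes transcribed by RNA polymerase II. The 10 genes described here are TRIM28, its TIF1 relatives TRIM24 and TRIM33, and genes for its heterochromatin partners SETDB1, CBX1, CBX3, CBX5, CHD3, ATRX and DAXX. They were chosen by name, through the Ensembl identifiers that map to these symbols, and each of the 10 was found among the 19901 protein-coding genes of the table. All 10 passed the minimum of 50 counts in each of the 4 libraries, as did 12612 genes in all.

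The measurement was TT-Seq, in which a short pulse of 4-thiouridine (4sU) marks RNA made during the pulse so that it can be biotinylated and purified. The cells were HCT116, a colon cancer line, with the genotype KAP1_dTAG_CloneD5. In this clone, grown from a single sorted cell after selection for both alleles, the endogenous KAP1 protein ends in an FKBP12 F36V degron and 2 HA tags, through which the ligand dTAG-13 (hereafter dTAG) sends it to the proteasome. Cells in homeostatic serum conditions received DMSO or dTAG for 8 h and then 500 μM 4sU for 10 min. Both groups carry the tag and the resistance cassettes, no untagged or second clone was compared, and there were 2 replicate libraries per group. The question put to these libraries was whether acute loss of KAP1 protein alters transcription when no stimulus is given.

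Gene counts per library lay between 93105627 and 102314741. Of the epithelial markers EPCAM, CDH1, KRT8, KRT18, CLDN4, VIL1, CDX2 and LGR5, 6 of 8 reached 50 counts in every library, while VIL1 and LGR5 did not. None of 5 blood markers did, 1 of 5 fibroblast markers did (COL1A1), 1 of 3 endothelial markers did (VWF) and 1 of 3 neural markers did (SYT1, with 80177 to 114630 counts). DMSO replicate 2 stood apart in its ERCC spike-in share and in a trend on GC content, both given below with TRIM28. Marker sums are in CPM of raw gene totals, without TMM normalization. The summed level of the epithelial markers was 1042 to 1121 CPM in DMSO and 949.8 to 1045 in dTAG libraries. That of the neural markers, nearly all from SYT1, was 844.5 to 1015 with DMSO and 1121 to 1226 with dTAG, without overlap. Fibroblast markers summed to 5.46 to 5.55 and 4.61 to 5.10 CPM, with COL1A2 and PDGFRA at 0 in every library, endothelial markers to 2.26 to 2.73 and 1.73 to 2.04, and blood markers to 0.074 to 0.14 and 0.086 to 0.16. The part of these markers in the results was not tested. CPM scales gene counts to a common library total, and the normalized CPM given below are after TMM normalization. A change in the total RNA made per cell would not be seen on either scale. In bulk libraries, fewer transcribing cells and less RNA per cell cannot be told apart.

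In the textbook account, the TIF1 proteins share a RING, B-box and coiled-coil module followed by a PHD finger and a bromodomain. Once at its target, KAP1 is modified by SUMO, binds the methyltransferase SETDB1, which places trimethylation on histone H3 lysine 9, and the CHD3 subunit of the NuRD complex. HP1 proteins (CBX5, CBX1 and CBX3 encode HP1α, HP1β and HP1γ) bind both KAP1 and the methylated histone, and ATRX with DAXX deposits histone H3.3 in heterochromatin. dTAG removes protein and not RNA, so the RNA of TRIM28 does not check the treatment labels.

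TRIM28 (ENSG00000130726) lies on chr19:58544090-58550722 (hg38, + strand), a gene of 6633 bases. Its last 60 coding bases and the stop codon are shown because the degron was joined to the C-terminus that they encode. They lie in the last coding exon at chr19:58550491-58550553, with the stop codon in capitals, as the hg38 reference has them and without the inserted cassette.
TRIM28 C-terminus: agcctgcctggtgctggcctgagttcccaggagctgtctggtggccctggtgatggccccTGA

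With dTAG, TRIM28 was the 1 member of 10 that passed the test, and it fell. The other 9 members did not pass it in either direction. Across all genes tested, edgeR's quasi-likelihood test called 895 of 12612 (7.1%) at an adjusted p under 0.05, of which 434 were higher (3.44%) and 461 lower (3.66%), so a single call among 10 genes was close to the background. The median log2 fold change was -0.011 over the 10 members and -0.015 over all tested genes. No member was higher at an unadjusted p under 0.05 or by DESeq2. At that unadjusted p there were 2 members, TRIM28 and CHD3, both lower, and 3355 of all genes. The libraries of the 2 groups did not overlap for 7 of the 10 members (3 higher and 4 lower with dTAG), and the same held for 58.8% of all tested genes (28.1% higher, 30.7% lower).

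TRIM28 gave 61.7 and 69.8 normalized CPM with DMSO, against 53.5 and 47.9 with dTAG, from 4321 to 6959 counts. Both dTAG values were below both DMSO values, and the means were 65.7 ± 5.7 with DMSO and 50.7 ± 4.0 with dTAG (SD, n = 2 each). The log2 fold change was -0.37 (SE 0.092, 95% confidence interval -0.57 to -0.18), so that TRIM28 fell by 22.8%, with an adjusted p of 0.019. Among all tested genes that change stood at the 8.55th percentile. The quantity measured is new TRIM28 RNA and not KAP1 protein.

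This fall passed at an adjusted p under 0.05 in 7 of 14 alternatives that kept every library, and not in the others. After each library's trends on GC content and gene length were removed, the log2 fold change was -0.10 (SE 0.050, adjusted p = 0.17), and with the replicate number as a block it was -0.37 (adjusted p = 0.059). With a factor estimated from ERCC spike-in RNAs it was -0.23 (adjusted p = 0.056), and it was -0.45 without dTAG replicate 1 (SE 0.16, adjusted p = 0.18) and -0.30 without dTAG replicate 2 (SE 0.16, adjusted p = 0.88). Without DMSO replicate 2 it was -0.28 (adjusted p = 0.0046). When library sizes were set by ERCC totals, the median of all genes moved to 0.63 and TRIM28 stood at 0.28, which is -0.35 relative to that median (adjusted p = 0.65). ERCC RNAs, added to purified nascent RNA, made up 0.0150% and 0.0265% of gene counts in DMSO and 0.0136% and 0.0103% in dTAG libraries. The ERCC factor was -0.048 and 0.80 in DMSO and -0.20 and -0.56 in dTAG libraries. It was lower in both dTAG libraries, so fits with this factor cannot fully separate it from treatment.

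**Figure D1:**
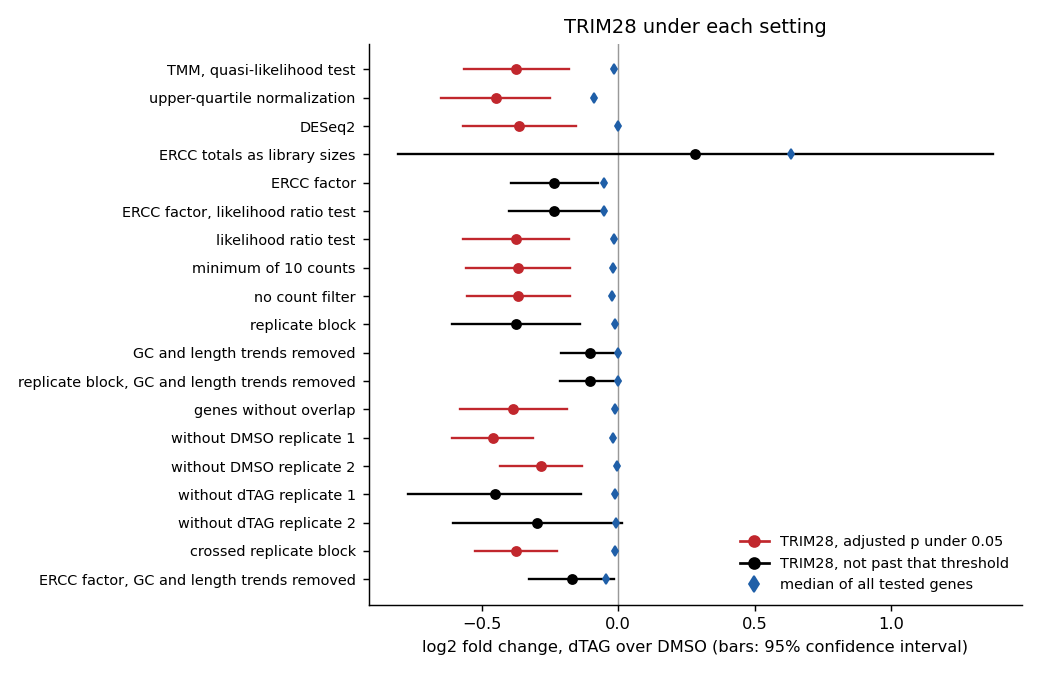
The log2 fold change of TRIM28, dTAG over DMSO, under each treatment of the counts, with circles for the estimate, bars for its 95% confidence interval, red for an adjusted p under 0.05 and diamonds for the median of all tested genes. TRIM28 lies at -0.37 by TMM with the quasi-likelihood test and at -0.10 after removal of the GC and length trends, and it is above 0, at 0.28, only with ERCC totals, where the median of all genes is 0.63.

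GC content is given beside this result because fold changes over the whole table followed it. Over the 12612 genes, log2 fold change and GC content had a Spearman correlation of -0.56 across genes, which share the same 4 libraries and are not independent. A like trend was present between replicates, at 0.75 for DMSO replicate 2 over DMSO replicate 1 and -0.43 for dTAG replicate 2 over dTAG replicate 1. TRIM28, at 59.3% GC, stood at the 93.02nd percentile of GC content and the 10.3rd of gene length. Among the 10 members the correlation of fold change with GC content was -0.87, as a description. The 3 members with over 50% GC (TRIM28, DAXX and CHD3) had the 3 lowest fold changes. After the trends were removed, TRIM28 relative to the DMSO mean was 0.023 and -0.023 with DMSO and -0.085 and -0.12 with dTAG on the log2 scale. The dTAG libraries were still the lower pair, by less than before.

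**Figure D2:**
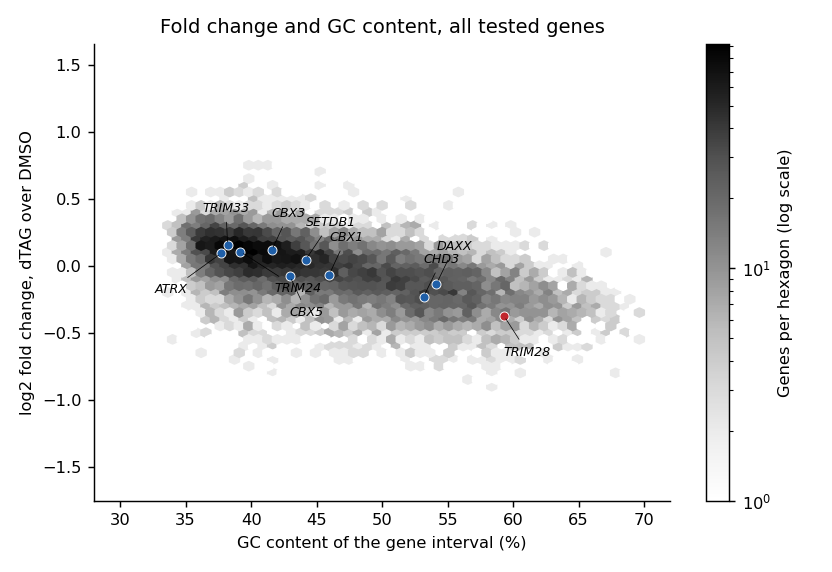
Log2 fold change (dTAG over DMSO) against the GC content of the gene interval in percent, with grey hexagons for the number of tested genes on a log scale, blue points for 9 members and a red point for TRIM28. The members run from the upper left, where TRIM33 (38.2% GC) is at 0.15, to the lower right, where TRIM28 (59.3% GC) is at -0.37.

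The TIF1 relatives of TRIM28 did not pass the test. TRIM24, a nuclear receptor coregulator (chr7:138460333-138589993, + strand), gave 128.9 and 117.5 CPM with DMSO and 128.0 and 136.9 with dTAG. The groups overlapped, and the log2 fold change was 0.10 (SE 0.086, adjusted p = 0.45). TRIM33, a ubiquitin ligase of SMAD signaling (chr1:114392776-114511160, - strand), gave 286.7 and 243.3 CPM with DMSO and 289.1 and 299.5 with dTAG. Both dTAG libraries were the higher ones, though dTAG replicate 1 was close to DMSO replicate 1, and the log2 fold change was 0.15 (SE 0.097, adjusted p = 0.32). For both genes the estimate was below 0 with the ERCC factor and after removal of the GC and length trends. Without DMSO replicate 1, which leaves a single DMSO library, TRIM24 was at 0.17 and TRIM33 at 0.27.

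SETDB1, the methyltransferase (chr1:150926262-150964744, + strand), was the steadiest member across libraries, with 61.1 and 62.7 CPM in DMSO and 63.8 in both dTAG libraries. Its log2 fold change was 0.045 (SE 0.084, adjusted p = 0.76), with an interval from -0.13 to 0.22. The 3' part of SETDB1 overlaps 4163 bases of CERS2, a ceramide synthase gene on the opposite strand. CERS2 gave 72.6 and 74.7 CPM with DMSO and 63.1 and 59.7 with dTAG, a log2 fold change of -0.26 (SE 0.084, adjusted p = 0.060). The sources used here do not say whether counting used the strand, so reads in the shared bases may belong to either gene.

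None of the 3 HP1 genes passed edgeR's test at an adjusted or unadjusted p under 0.05. Their estimates differed in sign by TMM, whereas all 3 were below 0 with the ERCC factor and above 0 with ERCC totals. With ERCC totals the median of all genes was itself at 0.63, with CBX1 at 0.58, CBX5 at 0.54 and CBX3 at 0.75. CBX3 (HP1γ, chr7:26201161-26213356, + strand) gave 200.7 and 188.7 CPM with DMSO and 205.1 and 216.4 with dTAG. Its dTAG libraries were both higher, at a log2 fold change of 0.11 (SE 0.088, adjusted p = 0.41). CBX1 (HP1β, chr17:48070051-48101521, - strand) gave 203.3 and 201.8 CPM with DMSO and 187.5 and 199.5 with dTAG. Its dTAG libraries were both lower, at a log2 fold change of -0.066 (SE 0.087, adjusted p = 0.65). CBX5 (HP1α, chr12:54230939-54280133, - strand) gave 182.2 and 158.7 CPM with DMSO and 162.1 and 160.6 with dTAG. DMSO replicate 1 stood above the other 3 libraries and DMSO replicate 2 below them, and the log2 fold change was -0.079 (SE 0.090, adjusted p = 0.59). CBX5 passed edgeR's test as lower in some alternatives. It was at -0.27 with the ERCC factor (adjusted p = 0.0045), where 5.99% of all tested genes passed as lower. With the GC and length trends removed and a replicate block it was at -0.14 (adjusted p = 0.028), where 8.92% did. With the trends removed and no block, CBX5 did not pass (adjusted p = 0.070).

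Of the remaining partners, CHD3, the NuRD ATPase that binds KAP1 (chr17:7884805-7912760, + strand), gave 36.3 and 36.5 CPM with DMSO and 29.6 and 32.5 with dTAG. Both dTAG values were lower, and the log2 fold change of -0.23 (SE 0.098) had an unadjusted p of 0.028 in edgeR's test and an adjusted p of 0.14. CHD3 passed at -0.31 with the ERCC factor (adjusted p = 0.043), and it was at -0.23 without DMSO replicate 1, which leaves a single DMSO library. ATRX, the helicase of the ATRX and DAXX pair (chrX:77504877-77786269, - strand), gave 365.9 and 304.5 CPM with DMSO and 342.1 and 373.4 with dTAG. The groups overlapped, and the log2 fold change was 0.094 (SE 0.10, adjusted p = 0.57). Its direction was not stable, since it passed as lower with the ERCC factor (-0.19, adjusted p = 0.037) and was at 0.23 without DMSO replicate 1. DAXX, the H3.3 chaperone (chr6:33318557-33323016, - strand), gave 27.1 CPM in both DMSO libraries and 25.6 and 23.8 with dTAG. Both dTAG values were lower, with a log2 fold change of -0.14 (SE 0.10, adjusted p = 0.41), and the estimate was above 0, at 0.064, once the GC and length trends were removed.

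**Figure D3:**
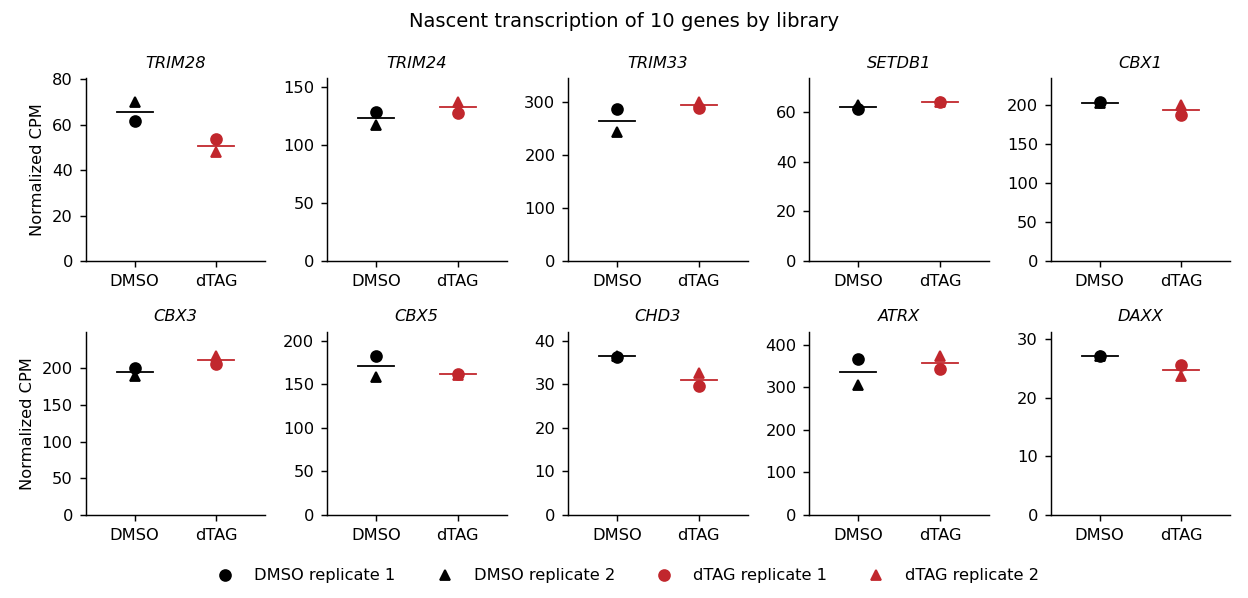
Normalized CPM of the 10 genes in each library, from 0, with black symbols for DMSO, red for dTAG, circles for replicate 1, triangles for replicate 2 and lines for the mean of 2 libraries. TRIM28, CBX1, CHD3 and DAXX show both dTAG libraries below both DMSO libraries, and TRIM33, SETDB1 and CBX3 show them above. The TRIM24, CBX5 and ATRX groups overlap.

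The number of members that passed moved with the treatment of the counts, and so did the background. With the ERCC factor, which differed between the groups, 3 of 10 members passed, all lower (CBX5, CHD3 and ATRX), where 9.59% of all tested genes passed. The number was 2, CBX5 and CHD3, with the ERCC factor and the GC and length trends removed, where 8.29% passed. In edgeR's test it was 0 after removal of the GC and length trends, where 18.1% passed, and 0 with the replicate block, where 2.7% passed. Each of these 2 fits had 1 member at an unadjusted p under 0.05, beside 4101 and 2087 of all tested genes. By DESeq2 it was 1, TRIM28, where 10.5% of the genes with an adjusted p passed. Without DMSO replicate 1 it was 5 (3 higher, 2 lower), where 43.5% of all tested genes passed.

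Every member had between 2145 and 36234 counts per library. Standard errors of the members ran from 0.084 to 0.10, against a median of 0.10 over all tested genes. For the 9 members that did not pass, no 95% interval reached beyond -0.43 or 0.35, that is 0.741-fold to 1.28-fold, so a 1.5-fold change in either direction (0.58 on the log2 scale) lay outside each interval under TMM scaling. Smaller changes, in either direction, lie within the intervals.

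**Figure D4:**
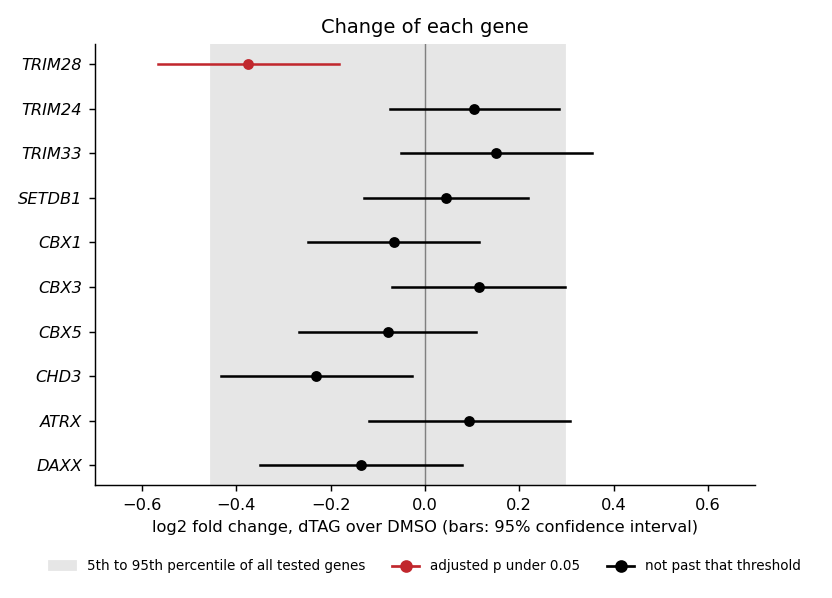
Log2 fold change, dTAG over DMSO, of each gene by TMM and the quasi-likelihood test, with points for the estimate, bars for the 95% confidence interval and the grey band for the 5th to 95th percentile of all tested genes (-0.45 to 0.30). Only the red TRIM28 point (-0.37) has an adjusted p under 0.05, and it lies within the grey band.

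Levels between genes were compared as CPM per kilobase of gene interval. In DMSO libraries, CBX3 had the highest level (16.0 ± 0.70, SD, n = 2), followed by TRIM28 (9.91 ± 0.86), CBX1 (6.44 ± 0.034), DAXX (6.07 ± 0.0026), CBX5 (3.46 ± 0.34), TRIM33 (2.24 ± 0.26), SETDB1 (1.61 ± 0.029), CHD3 (1.301 ± 0.0052), ATRX (1.19 ± 0.15) and TRIM24 (0.95 ± 0.062). The DMSO libraries of each gene lay apart from those of the next in this order, other than CHD3 and ATRX, which overlapped. With dTAG the order was the same but for ATRX and CHD3, which changed places. TRIM28 stood at the 96.0th percentile of all tested genes with DMSO and at the 94.7th with dTAG, behind CBX3 alone among the members in both. When the same whole-gene counts were divided by exon length, CBX1 came first and CBX3, TRIM33 and TRIM28 followed. Those counts cover introns too, so this is not a density of reads on exons. The order above holds for the gene interval alone.

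**Figure D5:**
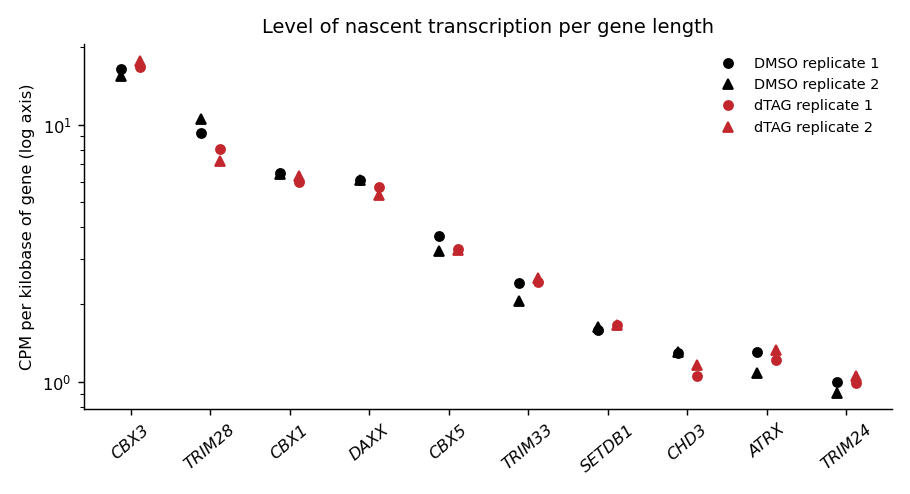
Level of each gene in CPM per kilobase of gene interval, on a log axis, for the 2 DMSO libraries (black) and the 2 dTAG libraries (red), ordered by the DMSO mean. CBX3 (16.0) and TRIM28 (9.91) are highest and TRIM24 (0.95) lowest, and the TRIM28 libraries separate by treatment.

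Within the TIF1 family, TRIM28 made up 73.1% and 78.0% of the summed level per kilobase in DMSO libraries and 70.2% and 66.8% in dTAG libraries. TRIM33 made up 19.05% and 15.25% with DMSO and 21.2% and 23.4% with dTAG. TRIM24 held the rest, at 6.72% to 9.77%. Among HP1 genes, CBX3 made up 61.8% and 61.6% with DMSO and 64.5% and 64.9% with dTAG. These shares restate the levels above and were not tested.

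Several members share their start or part of their interval with another gene. CBX5 starts 59 bases from HNRNPA1, an RNA-binding protein gene transcribed the other way. The 58 bases between both starts, chr12:54280134-54280191 (hg38, + strand), are shown because both genes leave from them. Their GC content was 62.1%, and capitals mark the 6 CpG dinucleotides.
CBX5 and HNRNPA1 starts: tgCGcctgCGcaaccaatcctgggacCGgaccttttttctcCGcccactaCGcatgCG
HNRNPA1 gave 259.9 and 301.8 CPM with DMSO and 248.6 and 271.2 with dTAG, and its log2 fold change was -0.11 (SE 0.097, adjusted p = 0.47), beside -0.079 for CBX5. In the DMSO libraries the pair went opposite ways, with CBX5 higher in replicate 1 and HNRNPA1 higher in replicate 2.

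CBX3 and HNRNPA2B1, another RNA-binding protein gene, start 368 bases apart in overlapping intervals. HNRNPA2B1 gave 593.7 and 543.3 CPM with DMSO and 558.7 and 627.5 with dTAG, with a log2 fold change of 0.061 (SE 0.10, adjusted p = 0.73). CHD3 and NAA38, which encodes a subunit of an N-terminal acetyltransferase, start 433 bases apart and overlap as well. NAA38 gave 29.8 and 27.7 CPM with DMSO and 25.5 and 24.9 with dTAG, a log2 fold change of -0.19 (SE 0.10, adjusted p = 0.24), beside -0.23 for CHD3. DAXX overlaps ENSG00000285064 on the same strand by 1632 bases, and that gene had 1 to 7 counts per library and was not tested. None of the 4 tested neighbors passed by edgeR's quasi-likelihood test or by DESeq2. In edgeR's test 1 of them, CERS2, had an unadjusted p under 0.05, as did 3355 of all 12612 tested genes.

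No other gene in the table overlapped TRIM28. Within 100 kb of it there were 8 further genes, all tested, and 0 passed edgeR's quasi-likelihood test or DESeq2. In edgeR's test 1 of the 8 had an unadjusted p under 0.05, as did 3355 of all 12612 tested genes. Without DMSO replicate 1, 4 of them passed as lower, as did 21.4% of all tested genes. Their log2 fold changes ran from -0.43 to 0.035 with a median of -0.13, and for 3 of 8 both dTAG libraries were below both DMSO libraries, against 30.7% of all tested genes.

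The 5 genes whose profile over the 4 libraries was most like that of TRIM28 were NGFR, STK16, ENO3, LY6G5C and PHLDB1. Likeness was the root mean square difference of log2 CPM after centering each gene, over 4 libraries, and it ran from 0.0069 for NGFR to 0.010 for PHLDB1. Their log2 fold changes were -0.37 to -0.36 by construction, and their GC content was 52.9% to 58.2%. PHLDB1, with 3047 to 4869 counts, passed the test (adjusted p = 0.031), whereas LY6G5C, with 112 to 182 counts, had an SE of 0.24 and an adjusted p of 0.32 at nearly the same fold change.

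A wider list of 47 genes was taken from textbook roles around KAP1 and its partners, and all 47 were tested. It held 2 higher and 2 lower genes, 8.51% of the list against 7.1% of all tested genes, with a median log2 fold change of 0.029 against -0.015. ATF7IP2 gave 44.01 and 37.4 CPM with DMSO and 54.9 and 55.1 with dTAG, a rise of 0.43 on the log2 scale (SE 0.095, adjusted p = 0.0090). ATF7IP, which encodes the cofactor that protects SETDB1 from degradation and is a paralog of ATF7IP2, went the other way. It gave 242.2 and 203.8 CPM with DMSO and 165.5 and 188.9 with dTAG, at a log2 fold change of -0.33 (SE 0.099, adjusted p = 0.047). Both dTAG libraries were above the DMSO libraries for ATF7IP2 and below them for ATF7IP.

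Both genes kept their direction by TMM, by DESeq2, with the trends removed and with the ERCC factor. With ERCC totals as library sizes, the median of all genes was 0.63. There ATF7IP changed sign, to 0.29 (adjusted p = 0.67), and ATF7IP2 was at 1.05 (adjusted p = 0.47). ATF7IP has 36.1% GC, at the 3.35th percentile, and after removal of the GC and length trends its log2 fold change was -0.52 (SE 0.043, adjusted p = 6.5e-06), while that of ATF7IP2 was 0.34 (SE 0.057, adjusted p = 0.0015). With the ERCC factor, ATF7IP was at -0.62 (adjusted p = 1.4e-07) and ATF7IP2 at 0.22 (adjusted p = 0.11). The replicate block gave ATF7IP an adjusted p of 0.17 and ATF7IP2 one of 0.022. Without dTAG replicate 1, ATF7IP was at -0.24 (SE 0.18, adjusted p = 0.63) and ATF7IP2 at 0.44 (SE 0.16, adjusted p = 0.19). Without dTAG replicate 2 they were at -0.43 (SE 0.18, adjusted p = 0.57) and 0.43 (SE 0.16, adjusted p = 0.41).

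SENP6, a protease that trims SUMO chains, gave 245.4 and 207.3 CPM with DMSO and 274.2 and 299.1 with dTAG. It rose by 0.34 (SE 0.098, adjusted p = 0.041), and after removal of the trends by 0.17 (SE 0.038, adjusted p = 0.0077), but with the ERCC factor it was at 0.076 (adjusted p = 0.45). The other 10 genes of the SUMO pathway list did not pass. MTA2, a NuRD subunit, gave 54.6 and 60.2 CPM with DMSO and 46.5 and 43.7 with dTAG. It fell to a log2 fold change of -0.35 (SE 0.090, adjusted p = 0.025), and was at -0.18 (SE 0.051, adjusted p = 0.032) with the trends removed. With ERCC totals, where the median of all genes was 0.63, MTA2 changed sign, to 0.31 (adjusted p = 0.62). SENP6 was at 0.96 there (adjusted p = 0.47). Neither SENP6 (0.17) nor MTA2 (0.098) had an adjusted p under 0.05 with the replicate block, and neither did without dTAG replicate 1 (SENP6 0.40, adjusted p = 0.36, and MTA2 -0.39, adjusted p = 0.30) or dTAG replicate 2 (SENP6 0.28, adjusted p = 0.93, and MTA2 -0.30, adjusted p = 0.87). The other 12 NuRD genes did not pass, among them CHD4, the alternative ATPase to CHD3, at -0.15 (SE 0.084, adjusted p = 0.25). None of the 15 genes of the list of other HP1, ATRX and DAXX partners passed in edgeR's test, with 5 at an unadjusted p under 0.05 and 1 passing by DESeq2. Over all 12612 tested genes, 3355 had an unadjusted p under 0.05 in edgeR's test. By DESeq2, 10.5% of the genes with an adjusted p passed. TRIM66, a further TIF1 relative, was at 0.037 (SE 0.083, adjusted p = 0.80).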

How the data were processed

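TT-Seq was analyzed for 4 HCT116 KAP1 dTAG libraries, 2 with DMSO and 2 with dTAG. Per the labels and the study's methods, the authors used FastQC 0.11.8, Trim Galore 0.6.4, STAR, hg38 and featureCounts (Subread 1.6.3) over whole genes. The deposited values are raw counts. Strand and overlap handling are not given in the sources used here. The labels name nuclear RNA, although the protocol describes whole-cell lysis.

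Counts were tested in R 4.3.3 with edgeR 4.0.16 (TMM, quasi-likelihood F test, two-sided, no block, at least 50 counts in all 4 libraries, Benjamini-Hochberg over 12612 genes, called at an adjusted p under 0.05). The code was tested on simulated data. The authors named edgeR 3.40.1 with spike-in normalization without a function or factor number, so ERCC settings (1 factor after the RUVg method, 14 ERCC RNAs) were alternatives, as were DESeq2 1.42.0, upper-quartile scaling, other filters, a likelihood ratio test, lowess removal of GC and length trends (span 0.3), a replicate block and leaving out libraries. Of the 19901 genes, 19784 had an interval that overlapped the GENCODE 44 gene of the same identifier. The named genes are all members, called genes of the wider list, genes overlapping a member or starting within 1 kb of it, called genes within 100 kb of TRIM28 and the 5 nearest in pattern. Members and lists were chosen with earlier results of these data known. The replicates are described as biological. The p-values rest on the spread between these samples, with variance estimates that share information across genes, and not on each gene's own spread alone.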

Additional observations from a re-analysis of the deposited data

How the results depend on the processing

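The tests of dTAG against DMSO (all genes, members and wider list) were recomputed under 12 alternatives, a further 2 chosen after seeing the data (the crossed block, and the ERCC factor with trends removed), and without each library in turn. Levels were recomputed from the same whole-gene counts per kilobase of exon, and with raw library totals alone. The family shares, GC correlations and genes nearest in pattern were not recomputed. With 1 library left in a group, that library is assumed to vary like the other group. Over the 9 members other than TRIM28, 118 values kept their direction and side of the threshold, 12 gained significance and 28 changed sign, of which 2 (ATRX with the ERCC factor, by either test) also gained significance. Counts below are higher then lower. Across all genes they were 434 and 461. They became 255 and 869 with upper-quartile scaling, 691 higher with DESeq2, 0 and 0 with ERCC totals (229 at an unadjusted p under 0.05 in edgeR), 755 lower with the ERCC factor (882 by likelihood ratio test), 729 and 864 by likelihood ratio test, 673 and 744 with no count filter, and 1341 and 939 with trends removed. Leaving out 1 library gave 48 to 2798 higher and 21 to 2693 lower, with the highest counts without DMSO replicate 1 and the lowest without dTAG replicate 2.

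Same-numbered libraries had a correlation of deviations of -0.25. They share a number, and the sources used here do not say whether they were cultured or prepared together. The replicate block gave 162 higher and 178 lower genes over the table (1.28% and 1.41%). It gave 0 lower members, 1 higher and 0 lower wider-list genes, and -0.37 for TRIM28 (adjusted p = 0.059). With trends removed too, the block gave 1504 and 1125 genes (11.9% and 8.92%), and 1 lower member, CBX5. It gave 12 and 4 wider-list genes, and -0.10 for TRIM28 (adjusted p = 0.18). Numbers crossed, chosen after seeing the data, the block gave 1587 and 1603 genes (12.6% and 12.7%), 2 lower members, and 8 and 5 wider-list genes.

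Members called lower were 1 of 10 by TMM (3.66% of all tested genes) and 3 with the ERCC factor (5.99%, or 6.99% by likelihood ratio test, with 3 as well). There were 2 with the ERCC factor and trends removed (4.87%), and 0 with trends removed (7.45%) or with ERCC totals. The wider-list counts below have as background the shares of all tested genes called higher and lower. These were 3.44% and 3.66% by TMM, 3.6% and 5.99% with the ERCC factor (3.8% and 6.99% by likelihood ratio test). They were 10.6% and 7.45% with trends removed, and 3.42% and 4.87% with both. The share higher was 2.02% with upper-quartile scaling and 5.7% by DESeq2, and that lower was 2.94% with a minimum of 10 counts. Without 1 library, which leaves a single library in a group, the number of members called also moved. Without DMSO replicate 1, TRIM24 was at 0.17, TRIM33 at 0.27 and ATRX at 0.23. Wider-list genes, 2 and 2 by TMM, were 1 higher with upper-quartile scaling, 4 higher with DESeq2, 0 and 0 with ERCC totals, 1 and 6 with the ERCC factor by either test, 1 lower with a minimum of 10 counts, 10 and 4 with trends removed, 0 and 6 with both, and 0 to 11 higher and 0 to 9 lower without 1 library.

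TRIM28 was at -0.23 with the ERCC factor by either test (adjusted p = 0.056 and 0.055), -0.10 with trends removed, -0.17 with both (adjusted p = 0.17), 0.28 with ERCC totals, and -0.46 to -0.28 without 1 library. Its whole-gene counts gave 15.3 CPM per kilobase of exon against 9.91 per kilobase of gene. Signs changed as follows. With ERCC totals, where the median gene was at 0.63, CBX1 was 0.58, CBX5 0.54, CHD3 0.43 and DAXX 0.50. With the ERCC factor, by either test, TRIM24 was -0.071, TRIM33 -0.083, CBX3 -0.022 and ATRX -0.19. With trends removed, with or without the block, TRIM24 was -0.033, ATRX -0.042, DAXX 0.064 (0.065 with the block) and TRIM33 -0.00046 (-0.00042 with the block). With the ERCC factor and trends removed, TRIM24 was -0.053, TRIM33 -0.059, SETDB1 -0.014, CBX3 -0.014 and ATRX -0.12. SETDB1 was -0.029 with upper-quartile scaling. Without 1 library, CBX5 ran from -0.18 to 0.024 (above 0 without DMSO replicate 1) and ATRX from -0.034 (without DMSO replicate 2) to 0.23. The cause was not tested. SETDB1, CBX3, CHD3 and DAXX have no value with genes without overlap, which removed them.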
